A study of Mus musculus with 4 samples.

Results

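Kinesins are motor proteins that walk along microtubules or take them apart. The 40 genes described here are those of the 35857 listed in each deposited table whose symbol is Kif with a number and at most 1 letter, or Kifc with 1 digit. They were split by known role into 12 mitotic kinesins, 17 transport kinesins, 6 kinesins of cilia and hedgehog signalling and 5 others. The mouse kinesin of the centromere, Cenpe, and the Kifc1 copy Kifc5b fall outside this naming rule and are mentioned only beside the members. RNA came from glial progenitors, that is neural stem cells from cerebral cortex of C57BL/6 mouse embryos, taken 24 hr after glial differentiation was induced. The 2 control libraries are wild type, and the 2 others, labelled Qk_KO, carry the genotype Qk-/-, a knockout of the gene for the RNA-binding protein Quaking. The labels give neither the age of the embryos nor how the knockout was made, and do not say whether replicates came from separate cultures, so a p-value measures only the spread between these libraries, which may be technical.

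Mitotic kinesins build the spindle, move and align chromosomes, and close the cell at cytokinesis, and their genes are transcribed mainly in G2 and M phase. Transport kinesins carry vesicles, mitochondria, RNA and receptors toward the ends of microtubules, and several are highly abundant in neurons with their long axons. Neural stem cells divide, whereas the neurons they give rise to do not. In bulk RNA, fewer cells of a type and less RNA per cell cannot be told apart.

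Values are TPM (transcripts per 1000000), a length-corrected share of all transcripts in a library, so levels of different genes can be compared. Each pair of values gives replicate 1, then replicate 2. The files hold no read depth, which leaves the counting error unknown. Per library, between 18846 and 19387 genes had a value above 0, and libraries of different groups correlated across the genes tested (Pearson's r of log2(TPM + 1) from 0.951 to 0.973, across genes) less closely than replicates did (0.978 and 0.985). Qk, the targeted gene, was at 208 and 215 TPM in the 2 controls, against 36.1 and 43.7 TPM in the 2 Qk_KO libraries. A gene was tested with limma on log2(TPM + 1) where its mean over the 4 libraries was at least 1 TPM, and called at a Benjamini-Hochberg adjusted p under 0.05 over all 13260 genes tested. Of the kinesins, 34 were tested, and all 34 also reached a mean of 1 TPM in the control libraries alone. Fold changes are differences of Qk_KO minus control in log2(TPM + 1), where the added 1 shrinks those of low genes.

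Mitotic kinesins were about 2 times as abundant in Qk_KO as in control. Their summed level was 123 and 78.6 TPM in the 2 controls, against 218 and 204 TPM in the 2 Qk_KO libraries. The group means were 101 ± 31.1 TPM in control and 211 ± 9.70 TPM in Qk_KO (SD, n = 2 each), with a ratio of 2.10. For 11 of the 12 genes both Qk_KO values lay above both control values, where 33.6% of all genes tested did so. Kif18a was the exception. The log2 fold change was at least 0.5 for 10 of the 12, against 12.1% of all genes tested, and their median was 0.94 against 0.04 over all genes tested. All 12 values were above 0, against 54.4% of all genes tested, except that Kif18a stood at -0.01 with quantile normalization. Only 1 of the 12, Kif20a, passed the adjusted threshold, where 3.24% of all genes tested did in either direction, 1.83% as higher and 1.42% as lower. Kif2a, which also acts at spindles, was placed among the other kinesins. It was at 36.3 and 35.4 TPM in control and 29.9 and 28.4 TPM in Qk_KO (log2 fold change -0.29, not called). The sum and counts of the mitotic class leave Kif2a out and depend on that placement. The mitotic class was known to be higher from earlier results on these data, and these counts are a description, not an independent test.

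**Figure D1:**
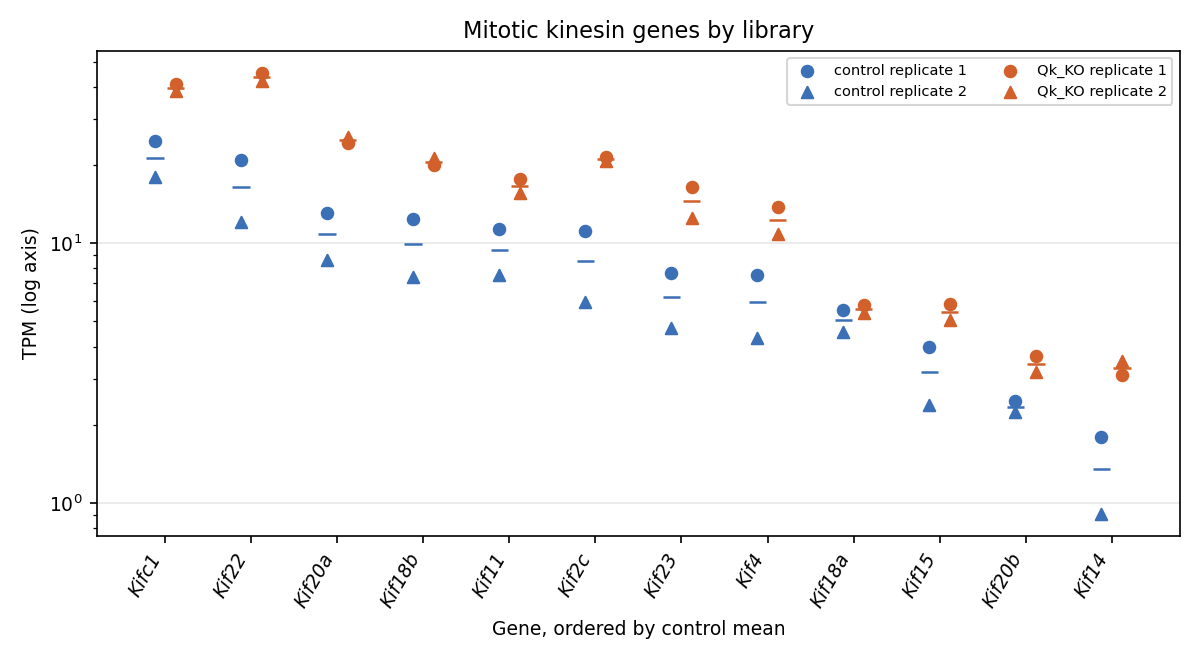
TPM (log axis) of the 12 mitotic kinesin genes in each library, ordered by control mean; circles are replicate 1, triangles replicate 2, and short lines the group means. The Qk_KO points lie above both control points for every gene but Kif18a, and control replicate 1 lies above control replicate 2 for all 12.

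Of the motors of the late spindle, Kif20a, which brings the Aurora B complex to the central spindle before cytokinesis, was at 13.0 and 8.62 TPM in the 2 controls, against 24.2 and 25.7 TPM in the 2 Qk_KO libraries. The 2 groups lay apart, and the 2 Qk_KO values differed little. Kif20a rose by a log2 fold change of 1.16 with an SE of 0.20 (limma adjusted p = 0.0493), close to the threshold. The call was lost without any 1 of the 4 libraries, at an adjusted p of 0.0887 and 0.244 without control replicates 1 and 2 and of 0.103 and 0.104 without Qk_KO replicates 1 and 2, with log2 fold changes from 0.89 to 1.43. Kif20a lies on chromosome 18 at 34624613 to 34633277 on the plus strand of GRCm38, and 1271 of its 4338 annotated exon bases are also covered by Cdc23 on the opposite strand. The sources used here do not say how strand entered the counting, so reads of the 2 genes may be mixed. Exons of Kif4 and Kif2a likewise overlap those of Pdzd11 and Dimt1. Cdc23 was at 58.2 and 53.6 TPM in the controls and at 64.5 and 64.5 TPM in Qk_KO, a log2 fold change of 0.21 that was not called.

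Kif23, the motor of centralspindlin, which holds the midzone together with Racgap1, was at 7.71 and 4.72 TPM in control and 16.4 and 12.5 TPM in Qk_KO. Its log2 fold change was 1.12, with an SE of 0.25 (limma adjusted p = 0.0669). Kif4, a chromokinesin that limits midzone length with Prc1, was at 7.55 and 4.31 TPM in control and 13.8 and 10.9 TPM in Qk_KO. Kif14, which anchors citron kinase at the midbody, was low throughout, at 1.79 and 0.91 TPM in control and 3.11 and 3.53 TPM in Qk_KO. Kif20b, which acts in abscission, was at 2.46 and 2.24 TPM in control and 3.69 and 3.18 TPM in Qk_KO. In these 4 genes the groups lay apart without passing the adjusted threshold.

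Among the motors of chromosomes and spindle poles, Kif22 is a chromokinesin that pushes chromosome arms toward the spindle equator. It was at 20.9 and 12.1 TPM in control and 45.3 and 42.2 TPM in Qk_KO, a log2 fold change of 1.40 with an SE of 0.25 (limma adjusted p = 0.0507), so both Qk_KO values were more than 2 times the higher control value. Kif22 is a minus-strand gene on chromosome 7 (127027729 to 127042471). Kif2c, which takes microtubules apart at centromeres to correct their attachment, was at 11.1 and 5.93 TPM in control and 21.6 and 20.7 TPM in Qk_KO, with a log2 fold change of 1.27 (limma adjusted p = 0.0622). Kif18b, which shortens astral microtubules, was at 12.4 and 7.41 TPM in control and 19.95 and 21.3 TPM in Qk_KO.

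Kif11, the motor that pushes the spindle poles apart, was at 11.3 and 7.55 TPM in control and 17.7 and 15.5 TPM in Qk_KO. Kif15, which can back it up, was at 4.0 and 2.38 TPM against 5.83 and 5.04 TPM. Kifc1, a minus-end motor that gathers the poles, was the most abundant mitotic kinesin in control, at 24.8 and 18.0 TPM, and stood at 40.9 and 38.5 TPM in Qk_KO (log2 fold change 0.88, limma adjusted p = 0.0536). In all of these the groups lay apart, and none was called. Kifc1 and Kifc5b share 38.6% of the 50-base words of the Kifc1 transcripts, so the split of reads between them is uncertain. Kifc5b was listed at 8.90 and 6.33 TPM in control and 13.0 and 12.5 TPM in Qk_KO. Kif18a, the motor that damps chromosome oscillations, stood apart from the rest of the class, at 5.54 and 4.55 TPM in control and 5.76 and 5.37 TPM in Qk_KO. Its groups overlapped, and its log2 fold change was 0.12 with a 95% interval from -0.31 to 0.55 (limma).

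The spread between the controls was part of the pattern. All 12 mitotic kinesins were higher in control replicate 1 than in control replicate 2, against 53.4% of all genes tested, with a median ratio of 1.66, whereas the median ratio of Qk_KO replicate 1 to replicate 2 was 1.07 and 9 of the 12 were higher in replicate 1, against 48.6% of all genes tested. Without control replicate 1 the median log2 fold change of the class was 1.25, and without control replicate 2 it was 0.65. It was above 0 for all 12 genes in both cases.

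Most of the mitotic kinesin genes also have, around an annotated start, a sequence feature that the naming rule did not use. The cell cycle homology region, TTTGAA or TTCGAA, is a promoter element bound by the MuvB core of the DREAM complex, which represses such genes in resting cells, and CCAAT boxes bound by NF-Y often lie upstream of it. Promoter windows of 300 bases, 250 before and 50 after the annotated start, were available from RefSeq (GRCm38.p6) for 11 of the 12 mitotic kinesins and 11 of the 17 transport kinesins. The genes without an entry were Kif20a and, of the transport class, Kif5a, Kif5b, Kif13b, Kif21b, Kifc2 and Kifc3. The 6-base element was sought on both strands (TTCGAA reads the same on both, and the other form reads TTCAAA on the opposite strand), and CCAAT likewise (ATTGG on the opposite strand). Neither motif contains the other. The 6-base element was found in 10 of 11 mitotic windows, in 1 of 13 transport windows (some genes have 2 starts) and in 19.2% of all 32851 windows. It was also found in 2 of 6 windows of the ciliary and hedgehog kinesins (Kif24 and Kif27) and in 1 of 6 windows of the others (Kif26b), each of which held CCAAT or ATTGG too. The only 1 of these 11 mitotic windows without it was that of Kif18a, the gene with the smallest log2 fold change of the class (0.12). Kif20b holds the element 2 times at a log2 fold change of 0.40, Kif24 holds it at 0.32, and Kif26a lacks it at 1.21. A link between the element and the fold change was not tested. Both motifs were found in 7 of the 11 mitotic windows, 0 of the 13 transport windows and 7.52% of all windows. In 8 of the 11 the 6-base element began within 50 bases of the start, as in 1 of 13 transport windows and 5.31% of all windows, a distance chosen after the positions were seen. Not all windows with the element lie at the outer end of the gene as annotated by GENCODE. Those of Kif14 (136467598 to 136467897) and Kif2c (117178723 to 117179022) lie inside genes whose 5′ ends are at 136466343 and 117182639. The Kif1a window with the element and the Kif27 window also lie inside their genes. A match of letters is a description and shows no binding.

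The following stretches run 5′ to 3′ on the gene's strand from 80 bases before to 29 bases after the start, with the element and any CCAAT or ATTGG in capitals. They show, in order, mitotic kinesins with the element just before the start (Kif11, chr19:37376302-37376411, plus strand; Kif15, chr9:122951001-122951110, plus; Kif22, chr7:127042391-127042500, minus) and just after it (Kif18b, chr11:102925095-102925204, minus; Kif23, chr9:61946770-61946879, minus; Kif4, chrX:100625985-100626094, plus).
Kif11: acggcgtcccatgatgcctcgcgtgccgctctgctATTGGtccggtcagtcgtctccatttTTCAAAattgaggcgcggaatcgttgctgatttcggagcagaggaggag
Kif15: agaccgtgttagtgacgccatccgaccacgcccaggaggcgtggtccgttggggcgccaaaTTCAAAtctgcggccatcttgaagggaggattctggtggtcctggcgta
Kif22: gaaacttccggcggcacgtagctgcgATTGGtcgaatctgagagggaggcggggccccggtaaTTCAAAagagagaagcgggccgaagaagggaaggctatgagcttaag
Kif18b: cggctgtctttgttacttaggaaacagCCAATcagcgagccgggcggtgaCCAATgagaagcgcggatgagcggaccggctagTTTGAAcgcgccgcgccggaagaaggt
Kif23: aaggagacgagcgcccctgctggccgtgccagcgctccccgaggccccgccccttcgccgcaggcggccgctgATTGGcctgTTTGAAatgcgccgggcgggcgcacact
Kif4: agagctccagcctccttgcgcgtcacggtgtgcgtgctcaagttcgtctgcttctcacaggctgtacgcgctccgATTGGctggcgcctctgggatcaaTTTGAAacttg

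In Kif11, Kif15 and Kif22 the element begins 19, 19 and 17 bases before the start, and in Kif18b, Kif23 and Kif4 it begins 3, 2 and 19 bases after it. For comparison, the same stretch is given of Kif18a (chr2:109280658-109280767, plus), the mitotic window without the element, and of 2 transport kinesins, Kif3c (chr12:3365052-3365161, plus) and Kif5c (chr2:49619206-49619315, plus). None of these 3 holds either motif in its 300-base window. Other transport windows do: 4 of the 13 hold CCAAT or ATTGG (those of Kif1b, Kif3a and Kif3b), and 1 of Kif1a holds the element. CCAAT or ATTGG was found in 7 of the 11 mitotic windows and 37.4% of all windows.
Kif18a: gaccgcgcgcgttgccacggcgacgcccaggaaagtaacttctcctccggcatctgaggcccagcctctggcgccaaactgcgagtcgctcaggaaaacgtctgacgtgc
Kif3c: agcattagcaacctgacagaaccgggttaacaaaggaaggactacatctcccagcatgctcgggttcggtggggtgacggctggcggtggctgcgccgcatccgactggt
Kif5c: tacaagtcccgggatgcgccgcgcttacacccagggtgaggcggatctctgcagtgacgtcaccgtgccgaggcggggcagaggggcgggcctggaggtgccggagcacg

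Transport kinesins showed no common direction. Their summed level was 922 and 925 TPM in the 2 controls, against 902 and 1015 TPM in the 2 Qk_KO libraries, so the groups overlapped and the ratio of the means was 1.04. Of the 17 genes 16 were tested, and none was called by limma. At an unadjusted p under 0.05, 3 of the 16 passed (Kif5a, Kif5b and Kif5c), against 28.4% of all genes tested. Both Qk_KO values lay above both control values for 5 genes and below them for 3, where 33.6% and 27.5% of all genes tested did so, and 2 of the 16 had a log2 fold change of at least 0.5, close to the 12.1% of all genes tested, and 1, Kif5b, had one of -0.5 or less, against 7.47%. The median log2 fold change was 0.08, and the mitotic median exceeded it by 0.86. That difference stayed between 0.53 and 1.19 when any 1 library was left out. Mitotic kinesins made up 10.9% and 7.33% of all kinesin TPM in the 2 controls, against 18.1% and 15.8% in the 2 Qk_KO libraries.

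**Figure D2:**
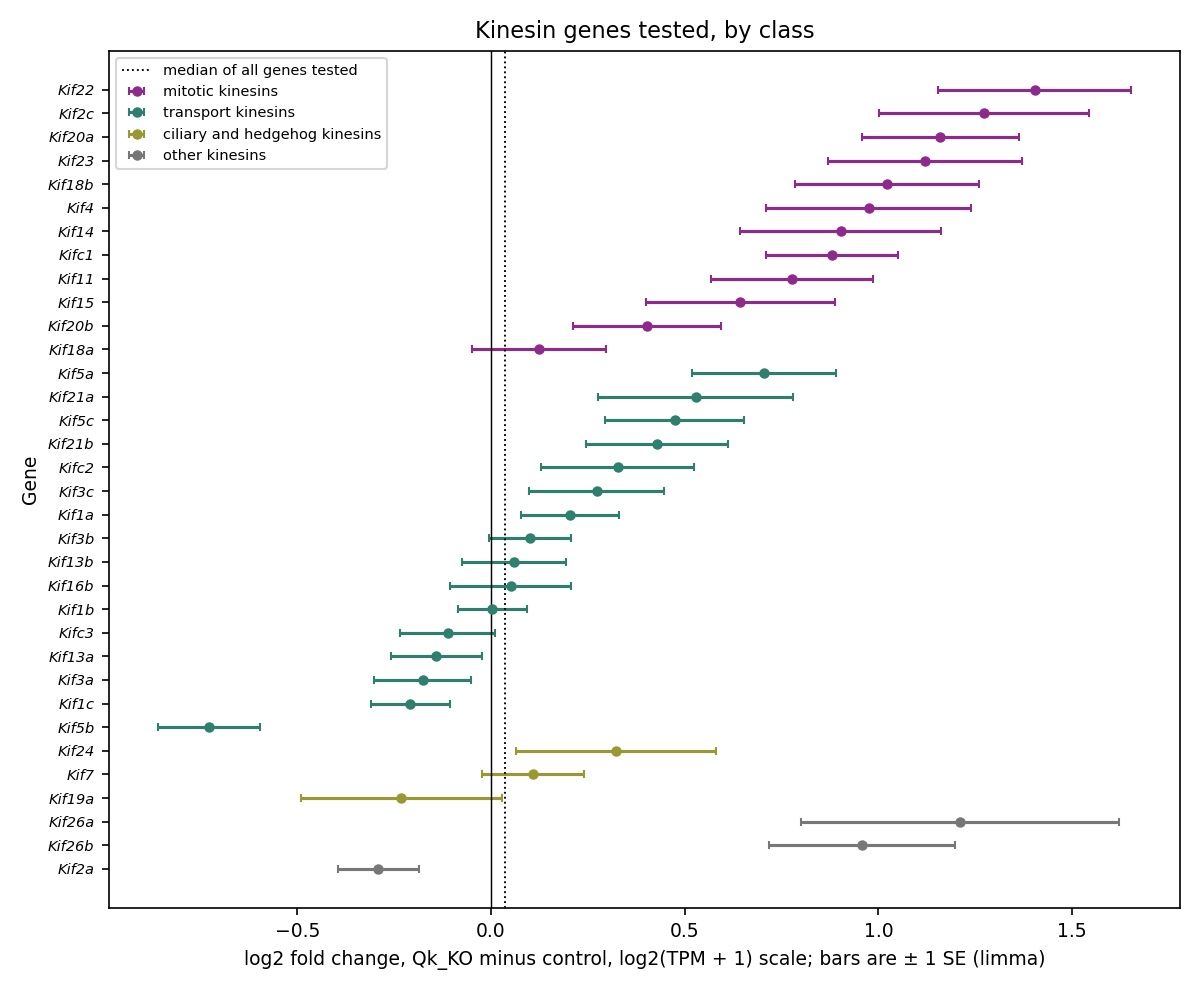
Log2 fold change, Qk_KO minus control on the log2(TPM + 1) scale, of the 34 kinesin genes tested, with bars of ± 1 SE from limma and a dotted line at the median of all genes tested (0.04). The mitotic genes lie between 0.12 and 1.40, and the transport genes between -0.73 and 0.70 around the dotted line.

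The kinesin-1 heavy chain genes differed in sign, though none was called. These 3 motors carry mitochondria, vesicles and RNA granules with the kinesin light chains. Kif5b is present in most cell types, whereas Kif5a is largely neuronal and Kif5c enriched in neurons. Kif5b was at 83.4 and 102 TPM in the 2 controls, against 58.4 and 52.4 TPM in the 2 Qk_KO libraries. Both Qk_KO values were below both control values, with a log2 fold change of -0.73 with an SE of 0.13 (limma adjusted p = 0.0513), just outside the threshold. Kif5a was at 31.2 and 27.7 TPM in control and 40.7 and 57.9 TPM in Qk_KO, a log2 fold change of 0.70 (adjusted p = 0.0854). Kif5c was at 20.7 and 14.8 TPM against 25.6 and 23.8 TPM, a log2 fold change of 0.47 (adjusted p = 0.159). For both, the Qk_KO values lay above the control values.

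Summed over the 3 genes, kinesin-1 differed less, at 135 and 144.5 TPM in control and 125 and 134 TPM in Qk_KO. Its makeup differed more. Kif5b was 61.6% and 70.6% of that sum in control replicates 1 and 2 and 46.8% and 39.1% in Qk_KO replicates 1 and 2. Kif5a was 23.1% and 19.2% against 32.6% and 43.1%, so that in Qk_KO replicate 2 it exceeded Kif5b. The shares were examined after the values of the single genes were known and were not tested; 2 libraries against 2 cannot give an exact permutation p below 0.333. The 3 genes have no 50-base word in common in their transcripts. Kif5b is a minus-strand gene on chromosome 18 (6201002 to 6242174).

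**Figure D3:**
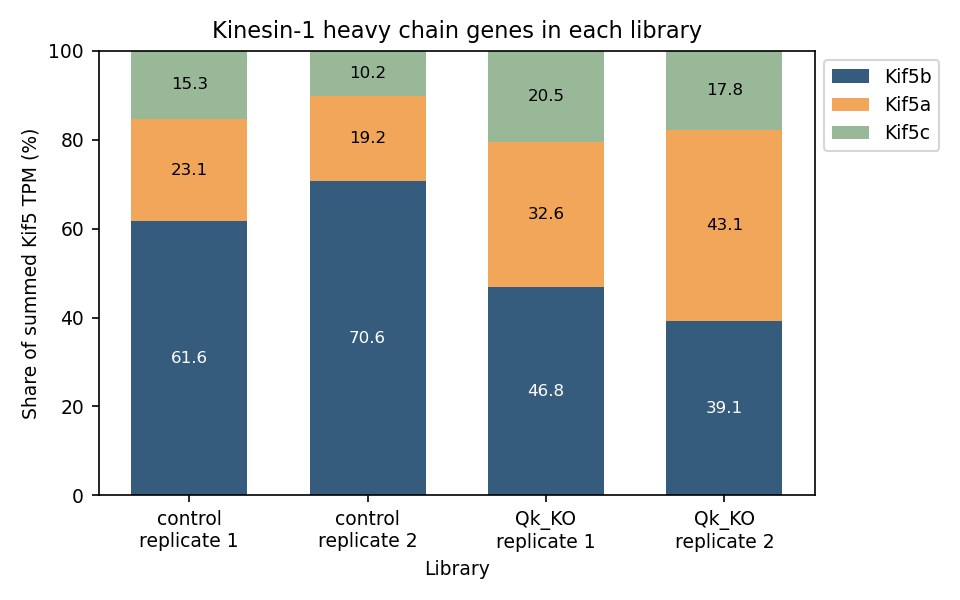
Share (%) of each kinesin-1 heavy chain gene in the summed TPM of Kif5a, Kif5b and Kif5c, with 1 bar per library. Kif5b is the larger part of both control bars (61.6% and 70.6%) and a smaller part of both Qk_KO bars (46.8% and 39.1%).

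Neuronal markers were also higher in sum in Qk_KO. The 10 markers fixed for neurons summed to 780 and 582 TPM in the 2 controls, against 1098 and 1145 TPM in the 2 Qk_KO libraries. Of these 10 genes 2 rose by limma (Ina and Snap25), 0 fell, and 5 had both Qk_KO values above both control values, with a median log2 fold change of 0.40. Of all genes tested, 1.83% were called higher and 33.6% had both Qk_KO values above both control values. Most of the difference in this sum lay in Tubb3, which was not called, at 275 and 126 TPM in control and 512 and 383 TPM in Qk_KO. The groups overlapped for 5 of the 10 markers. Among these, Stmn2 and Nefl had log2 fold changes below 0, and Map2 was at 0.02. The part of neuronal cells in the Kif5a and Kif5b difference was not tested.

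The kinesin-3 motors, the most abundant group of the family, were nearly level. Kif1a, which carries synaptic vesicle precursors and dense-core vesicles in axons, was at 180 and 161 TPM in control and 178 and 215 TPM in Qk_KO. Kif1b, a carrier of mitochondria and synaptic vesicle precursors, was at 131 and 135 TPM against 130 and 137 TPM, with a log2 fold change of 0.00 and a 95% interval from -0.22 to 0.22 (limma). Kif1c, a widely expressed vesicle motor, was at 142 and 162 TPM against 133 and 130 TPM. Only for Kif1c did the groups not overlap, with a log2 fold change of -0.21 (limma adjusted p = 0.242). The endosomal motors Kif13a, Kif13b and Kif16b had log2 fold changes between -0.14 and 0.06, and their groups overlapped.

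Kif3a and Kif3b, the pair that with Kifap3 forms the kinesin-2 motor of cilia and vesicles, were at 33.7 and 29.2 against 26.4 and 28.9 TPM, and at 25.5 and 26.2 against 27.3 and 28.3 TPM, in control and Qk_KO. Kif3c, their neuron-enriched relative, was the most abundant of the 3, at 83.0 and 75.6 TPM in control and 81.0 and 113 TPM in Qk_KO. Kif17, the single-gene kinesin-2 of dendrites and cilia, stayed below the filter, at 0.59 and 0.84 TPM in control and 0.42 and 1.06 TPM in Qk_KO. The high value of Kif3c came from 1 of the 2 Qk_KO libraries, and its groups overlapped.

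Kif21a and Kif21b are kinesins that restrain microtubule growth in growth cones and dendrites. Kif21a was at 24.2 and 16.5 TPM in control and 35.6 and 24.1 TPM in Qk_KO, so the groups overlapped narrowly. Kif21b was at 55.2 and 52.5 TPM in control and 60.6 and 87.5 TPM in Qk_KO, a log2 fold change of 0.43 (limma adjusted p = 0.195). For Kif21b, as for Kif5a, Kif3c and Kif1a, the highest value was that of Qk_KO replicate 2. The same held for Kif1b, Kif3b, Kif13b, Kif17 and Kifc2. Kif5c, Kif16b and Kif21a were highest in Qk_KO replicate 1, and the remaining transport kinesins in a control library. The minus-end motors Kifc2 and Kifc3 had log2 fold changes of 0.33 and -0.11 and were not called.

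**Figure D4:**
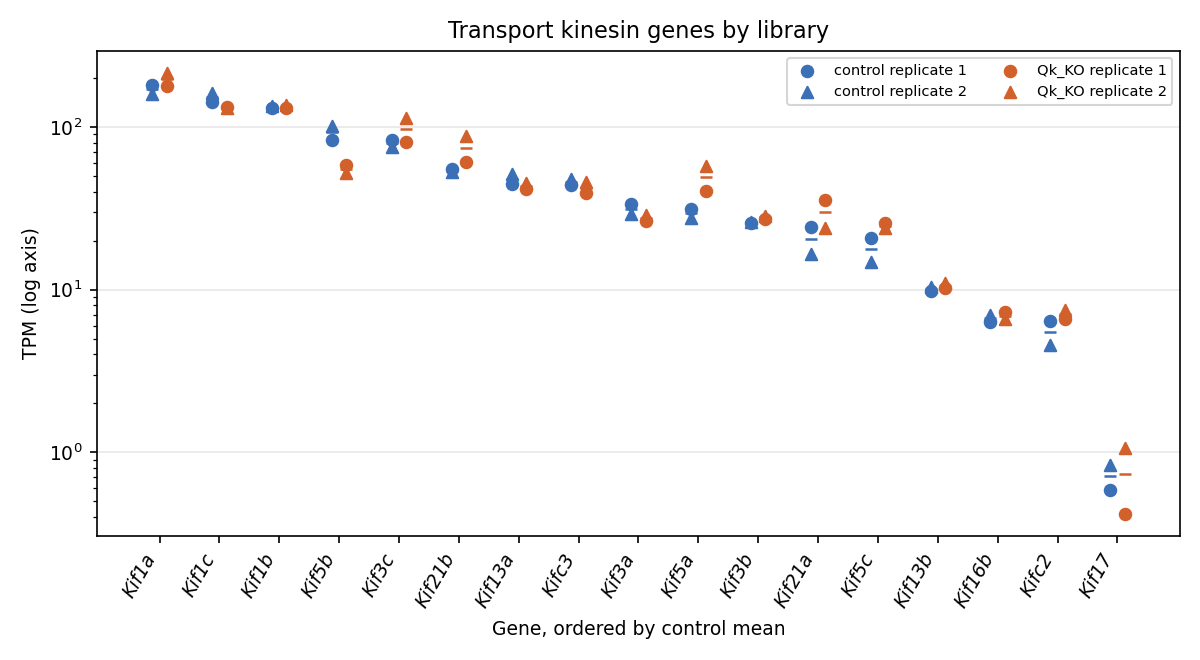
TPM (log axis) of the 17 transport kinesin genes in each library, ordered by control mean; circles are replicate 1, triangles replicate 2, and short lines the group means. The groups overlap for 8 of the 16 tested genes, and Kif5b, with both Qk_KO points below both control points, and Kif5a, with both above, are the widest separations.

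Of the remaining 11 kinesins, 6 were tested and none was called by limma. At an unadjusted p under 0.05, 3 of the 6 passed (Kif26a, Kif26b and Kif2a), against 28.4% of all genes tested. Kif26a and Kif26b, kinesins without motor activity that act in signalling and cell shape, had log2 fold changes within the range of the mitotic class. Kif26b was at 8.59 and 5.07 TPM in control and 14.4 and 13.3 TPM in Qk_KO (log2 fold change 0.96, limma adjusted p = 0.0778), and Kif26a at 2.31 and 1.01 against 7.42 and 3.23 TPM (1.21, adjusted p = 0.132). In both the groups lay apart, and replicates of Kif26a differed by more than 2 times in each group. Kif2a, a microtubule depolymerase of neurites, cilia and spindles, lay lower, at 36.3 and 35.4 TPM in control and 29.9 and 28.4 TPM in Qk_KO (-0.29, adjusted p = 0.144). Kif7, the hedgehog regulator at the tip of the cilium, was at 31.4 and 25.8 TPM against 31.2 and 30.3 TPM. Kif24 and Kif19a, which restrain cilium formation and length, were between 0.86 and 2.52 TPM in all libraries. Kif6, Kif9 and Kif27, genes linked to motile cilia, were at 0.53 TPM or less, and Kif12 and Kif2b were listed at 0 in all 4 libraries.

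The partners of the mitotic kinesins were mostly higher in Qk_KO, though none was called. Of 20 spindle partners, none was called by limma, 18 had both Qk_KO values above both control values (33.6% of all genes tested did), and the median log2 fold change was 0.78. At an unadjusted p under 0.05, 18 of the 20 passed, against 28.4% of all genes tested. Racgap1, the centralspindlin partner of Kif23, was at 47.9 and 31.4 TPM in control and 79.6 and 74.8 TPM in Qk_KO. Numa1, which focuses spindle poles, was at 74.5 and 62.6 against 87.6 and 91.2 TPM. Cenpe, the centromere kinesin, was at 4.98 and 3.73 against 8.11 and 6.88 TPM, a log2 fold change of 0.67. In all 3 the groups lay apart.

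Markers of cycling cells were higher in sum in Qk_KO too. The 10 markers fixed for cycling cells summed to 232 and 158 TPM in the 2 controls, against 396 and 361 TPM in the 2 Qk_KO libraries. By limma 2 of them rose (Ccnb1 and Ccnb2), and 0 fell. Of all genes tested, 1.83% were called higher. Both Qk_KO values lay above both control values for all 10, against 33.6% of all genes tested, and 1 of them, Aurkb, is also among the spindle partners. The summed mitotic kinesins were 0.528 and 0.497 times these markers in control and 0.552 and 0.566 times in Qk_KO. Relative to the summed spindle partners they were 0.278 and 0.230 times in control and 0.341 and 0.329 times in Qk_KO. The partner sum differed by a smaller factor (1.61 against 2.10), but abundant genes weigh most in it. Of these, Numa1 and Ckap5 had log2 fold changes of 0.38 and -0.04, and Racgap1 had 0.97. The median log2 fold change was 0.78 for the partners and 0.94 for the mitotic kinesins. The 8 S phase markers summed to 448 and 361 TPM in control and to 772 and 459.5 TPM in Qk_KO, with 0 called by limma and 2 at an unadjusted p under 0.05. Both Qk_KO values lay above both control values for 6 of these 8. The same held for 33.6% of all genes tested, and 28.4% had an unadjusted p under 0.05. The sum was highest in Qk_KO replicate 1, whereas mitotic kinesins were about equal in both Qk_KO libraries. The part of the number of dividing cells in the kinesin difference was not tested. Markers of microglia and macrophages lay the other way, at 44.4 and 38.4 TPM summed over 8 genes in control and 21.6 and 15.7 TPM in Qk_KO, with Aif1 listed at 0 in Qk_KO replicate 2. Of these genes 0 were called by limma and 5 of the 6 tested had an unadjusted p under 0.05, against 28.4% of all genes tested, and their part was not tested either.

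The labelled cell type was checked against its markers. The 8 markers of neural stem cells and radial glia summed to 6199 and 6150.4 TPM in control and 6337 and 6158 TPM in Qk_KO, with none at 0; Pax6 rose from 24.0 and 17.9 to 48.9 and 45.8 TPM, and the glutamate transporter gene Slc1a3 fell from 338 and 435 to 117 and 150.04 TPM. The 7 astrocyte markers summed to 248 and 241 TPM in control and 412 and 333 TPM in Qk_KO, of which Aqp4 rose and 0 fell. Most of the difference in this sum lay in Aldh1l1, which was not called, at 52.0 and 32.9 against 229 and 108 TPM, while 4 of the 7 had log2 fold changes below 0 and the median was -0.07. S100b (-2.31) and Gja1 (-0.90) had both Qk_KO values below both control values and were not called. The 8 oligodendrocyte lineage markers summed to 1169 and 967 TPM in control and 895 and 1092 TPM in Qk_KO, of which Pdgfra fell and 0 rose, with 1 marker at 0 in Qk_KO replicate 1. The 7 ependymal markers summed to 17.9 to 22.7 TPM per library, with 3 or 4 of them at 0.

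**Figure D5:**
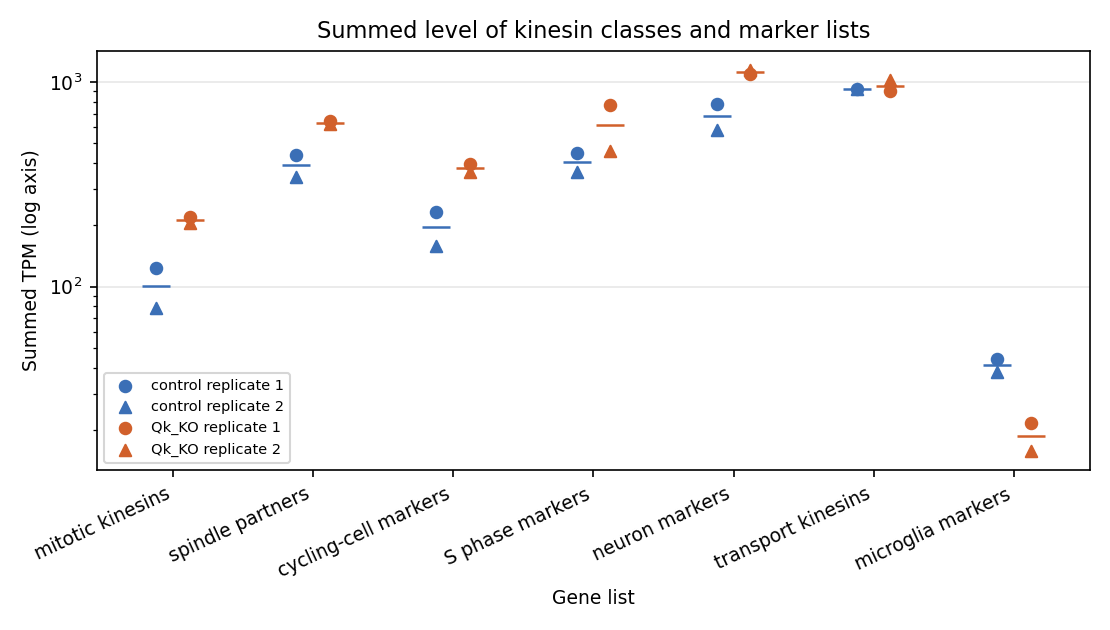
Summed TPM (log axis) of the mitotic and transport kinesins, the spindle partners and 4 marker lists in each library; circles are replicate 1, triangles replicate 2, and short lines the group means. Mitotic kinesins (123 and 78.6 TPM in control, 218 and 204 TPM in Qk_KO) separate like the cycling-cell markers, while transport kinesins overlap.

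The partners of transport kinesins were mixed. Among 21 tested light chains, adaptors and cargo linkers, 2 rose, 1 fell and 18 did not pass by limma, with a median log2 fold change of 0.26. Of all genes tested, 1.83% were called higher and 1.42% lower. At an unadjusted p under 0.05, 14 of the 21 passed, against 28.4% of all genes tested. Both Qk_KO values lay above both control values for 13 and below them for 5, where 33.6% and 27.5% of all genes tested did so. Klc1, the light chain that links kinesin-1 to cargo in neurons, rose from 290 and 280 TPM in control to 435 and 434 TPM in Qk_KO, a log2 fold change of 0.61 (limma adjusted p = 0.0423). Mapk8ip1, the scaffold JIP1 that ties kinesin-1 to JNK signalling and cargo, rose from 168 and 155 to 235 and 246 TPM (0.58, adjusted p = 0.0450). Spag9, the related scaffold JIP4, fell from 140 and 139 to 76.1 and 84.9 TPM (-0.79, adjusted p = 0.0365). These 3 calls were lost whenever 1 library was left out.

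Klc2, Klc3 and Klc4 had log2 fold changes of 0.42, 0.81 and 0.26, with all Qk_KO values above the control values, and were not called. Kif1bp, which binds several kinesins and blocks their motors, was at 63.9 and 63.8 TPM in control and 47.3 and 49.9 TPM in Qk_KO (-0.39, limma adjusted p = 0.0760). Of 22 genes of dynein and dynactin, the motor that runs the other way, 0 rose, 1 fell and 21 did not pass by limma, with a median log2 fold change of 0.01. The 1 call is near the background, since 3.24% of all genes tested were called and 1.42% as lower. Dynlt3, a dynein light chain, fell from 50.1 and 58.0 TPM to 23.3 and 24.2 TPM (-1.15, limma adjusted p = 0.0272), a call also lost whenever 1 library was left out, while the heavy chain gene Dync1h1 was at 182 and 182 TPM in control and 184 and 183 TPM in Qk_KO. Of 19 intraflagellar transport genes, cargo trains of kinesin-2 in cilia, none was called by limma. At an unadjusted p under 0.05, 6 passed, a share near the 28.4% of all genes tested, and the median log2 fold change was 0.20. Of the 19, 17 had values above 0, against 54.4% of all genes tested. Both Qk_KO values lay above both control values for 10 and below them for 2, where 33.6% and 27.5% of all genes tested did so. Their summed level was 502 and 438 TPM in the 2 controls, against 648 and 568 TPM in the 2 Qk_KO libraries. The most abundant of them, Ift43 and Ift46, were at 67.9 and 68.6 against 117 and 91.9 TPM, and at 69.7 and 58.8 against 104 and 97.6 TPM.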

How the data were processed

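RNA was poly(A)-selected and sequenced on an Ion Proton, per the labels' protocols. The authors deposited 1 table of TPM per library, 4 in all, and STAR 2.4.1d, RSEM 1.3.0 and the builds mm10 and GRCm38.p4 are named in the submitters' processing notes. No annotation, filter or strand setting is named there or in the labels. Depth cannot be read from TPM, and precision is given as the spread between libraries.

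From these values limma 3.58.1 (R 4.3.3) was run on log2(TPM + 1) with a variance trend, on the 13260 genes averaging 1 TPM or more, 2 Qk_KO against 2 control libraries, as a two-sided test; p-values were adjusted by Benjamini-Hochberg over those genes. The procedure was tested on simulated data with limma's own spread and independent errors. Those data held no shift shared by genes within a library, so the calls were not tested against such a shift. The members, gene lists, markers and tests were chosen with earlier results of these data known. Named genes are the called kinesins, the mitotic and transport kinesins that carry the contrast, the called members of each partner list (or the 2 with the highest mean where none was called) and Qk; others named, such as Cenpe, Klc2, Dync1h1 and the marker genes, were chosen after their values were seen. All 83 entries of the 4 partner lists and all 66 marker entries matched. Gene positions are from the GENCODE annotation of GRCm38, and promoter windows from RefSeq (GRCm38.p6). Alternatives covered pseudocounts, filters, scaling, variance models, small RNA genes, GC content (known for 12462 of the 13260 genes), a replicate block and leaving out each library.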

Additional observations from a re-analysis of the deposited data

How the results depend on the processing

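The medians of the mitotic class (0.65 to 1.25), of the transport class (0.04 to 0.12) and their difference (0.53 to 1.19) kept their direction under all 15 alternatives, while counts of calls depended on the settings. Over all genes, 430 calls (242 higher, 188 lower) became 0 with no filter on low values (4327 at an unadjusted p under 0.05), 649 with a mean of at least 5 TPM, 41 with no trend, 795 with small RNA genes left out and 4 to 148 without 1 library. The split was 174 higher and 226 lower with the GC trend removed. Kinesin calls (1) became 3 with a pseudocount of 0.1 (2 mitotic, 1 transport), 4 at 5 TPM (3 and 1), 5 without small RNA genes (4 and 1), and 0, with 0 mitotic, with no filter, quantile normalization, no trend, the GC trend removed or any 1 library left out (0 to 0). The 1 transport call was Kif5b. Calls among adaptors (3) became 0 with no filter, 0 with no trend, 1 with the GC trend removed and 0 to 0 without 1 library, and the dynein call (1) became 0 with no filter, 0 with no trend and 0 to 0 without 1 library. Spindle partners (0) gave 1 call with a pseudocount of 0.1, 4 at 5 TPM and 8 without small RNA genes, and intraflagellar transport (0) gave 1 in each of these. The cause of these shifts was not tested. Small log2 fold changes changed sign: Kif7 to -0.055 (GC) and from -0.029 to 0.25 without 1 library; Kif18a to -0.014, Kif13b to -0.017 and Kif16b to -0.078 (quantile), and Kif16b from -0.019 (without control replicate 1; -0.0078 without Qk_KO replicate 1) to 0.12 without 1 library. Kif1b went to -0.031 (median-ratio scaling), -0.0054 (quantile), -0.050 (GC) and from -0.031 (without Qk_KO replicate 2; -0.021 without control replicate 1) to 0.038 without 1 library. Depth is unknown and limits low genes such as Kif14 and Kif26a.

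The libraries share only a replicate number: with 2 pairs, the deviations of same-numbered libraries from their group means correlated at 0.114 across genes. With the replicate number as a block, 1278 genes were called, among them 11 kinesins (8 mitotic and 1 transport), 14 spindle partners and 3 intraflagellar transport genes.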

Other observations

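Within the summed mitotic kinesins the makeup differed between groups, a pattern seen in the data and not tested. Kif22 made up 17.1% and 15.3% of the sum in control replicates 1 and 2 and 20.8% and 20.7% in Qk_KO replicates 1 and 2. Kif18a made up 4.52% and 5.79% in control and 2.64% and 2.63% in Qk_KO. Kifc1 made up 20.2% and 22.8% in control and 18.7% and 18.8% in Qk_KO, so Kif22 exceeded it in both Qk_KO libraries and in neither control library.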
